A study of Mus musculus with 6 samples.

Results

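Crystallins are the abundant soluble proteins of the eye lens. The alpha crystallins are small heat shock proteins with chaperone activity, and the beta and gamma crystallins form a separate family of compact structural proteins. Lens fibre cells make them in very large amounts, and Cryab is also made in many tissues outside the lens. The lens lies beside the retina in the eye, and crystallin transcripts have also been described in retinal cells, so a retinal library can hold them from either source.

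The 10 crystallin genes described here were Cryaa, Cryab, Cryba1, Cryba2, Cryba4, Crybb1, Crybb2, Crybb3, Cryga and Crygs. They were chosen from their measured levels in these libraries, which rose and fell together from stage to stage, so their levels are given as a description. A poly(A) site counted for a gene when its 3′ edge fell inside that gene or in the 1000 bases that follow it, on the strand of the gene. The 10 genes carried 12 of the 32688 sites and were 10 of the 14410 nuclear genes with a site. The working name of the set was lens carry-over. That name was not tested: these data hold no measurement of where in the eye a transcript was made, and in bulk tissue fewer cells of a type and less RNA per cell cannot be told apart.

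The study followed poly(A) site use in the developing mouse retina with PA-seq, an oligo(dT)-primed library that reads the 3′ ends of polyadenylated RNA. Retinas of C57BL/6J mice were taken at embryonic days 13.5, 15.5 and 18.5 (E13.5, E15.5, E18.5), and after birth on days 0, 6 and 21 (P0, P6, P21). No treatment or mutation was labelled, and the number of animals behind a library is not given in the sources used here. Each stage had 1 sample, so no comparison of stages below has a replicate check.

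The deposited table held 2 count columns for each stage, called the first and the second column here. What distinguishes them is not stated, so they were read as repeat measurements of 1 sample and not as replicates. The libraries held 3286158 to 4656153 tags with the columns added, and the single columns held 1626074 to 2496483 tags. All 8 genes of a retinal list were measured, and their summed level was 1962 to 3510 CPM over the 6 libraries. CPM are tags scaled to library size with the TMM factors of edgeR.

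The sequences in front of the cleavage sites are shown first, since each tag is the mark of such a site. They are the 30 bases of GENCODE M21 transcript sequence (mm10) that end at the 3′ edge of the site, read 5′ to 3′, with the poly(A) signal AATAAA in capitals.
Cryaa, chr17:31681723, plus strand: gcagacAATAAAgagcaggtgacagaagca
Cryab, chr9:50756633, plus strand: attattaagctAATAAAaatatcattcagc
Cryba1, chr11:77718631, minus strand: aaaatccacAATAAAtgtcatttaaaaaaa
Cryba2, main site, chr1:74889933, minus strand: taagattctcAATAAAagctctagaatcta
Cryba2, inner site, chr1:74891750, minus strand: atgAATAAActcttgggtgggtggtagtgg
Crybb1, main site, chr5:112269580, plus strand: ttcccctactAATAAAgttcttatagccga
Crybb2, chr5:113058260, minus strand: agagtgaagAATAAAgtgtggcttgcaact
Crybb3, chr5:113075839, minus strand: acctgctcAATAAAgcccaccagccacgca
Cryga, chr1:65100393, minus strand: gcAATAAAtaatcaacctgtgttcctggca
Crygs, chr16:22805206, minus strand: acaacgtaAATAAAagcattggaatgcatc

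All 10 windows shown held AATAAA, the hexamer that the cleavage and polyadenylation machinery binds, starting 19 to 28 bases before the edge. Over the strongest sites of 13265 genes with transcript sequence, 67.7% held AATAAA on the gene strand, 15.3% held ATTAAA but not AATAAA, and 17.0% held neither. The main site of each crystallin gene lay within 16 bases of the annotated gene end, in an exon outside the coding sequence or 1 base past the gene. A second site of Crybb1, at chr5:112270107, lay 522 bases past the gene end, where no transcript sequence was at hand. In a search of all other annotated transcripts with the last 75 bases of each gene, none matched at 90% identity over 60 bases, so these ends differed from those of other transcripts, including the other gamma crystallins. On the opposite strand Cryaa and Cryba1 overlap AC090881.2 and Nufip2, and the library protocol keeps the strand.

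The summed level of the 10 genes alternated between high and low stages. With the columns added it was 955, 2460.5 and 406 CPM at E13.5, E15.5 and E18.5, and 3111, 221 and 824 CPM at P0, P6 and P21. These sums were 0.0933%, 0.240%, 0.0405%, 0.295%, 0.0217% and 0.0765% of all tags of the libraries, and the 95% Wilson intervals of the 6 shares did not overlap each other. Nor did they in the second columns, but in the first columns the share was 0.101% at P21 (0.0963% to 0.105%) and 0.0926% at E13.5 (0.0886% to 0.0969%), with intervals that overlap. The intervals cover at most counting error. They treat tags as independent molecules, which PCR reads are not, so they can be too narrow even for that. They also say nothing on how 2 retinas of 1 stage would differ.

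Each step between neighbouring stages turned the direction. The sum was 2.58-fold higher at E15.5 than at E13.5, 6.06-fold lower at E18.5 than at E15.5, and 7.66-fold higher at P0 than at E18.5. It was then 14.1-fold lower at P6 than at P0 and 3.72-fold higher at P21 than at P6. On the log2 scale these steps were 1.37, -2.60, 2.94, -3.81 and 1.90, while the median step of all genes lay between -0.02 and 0.02.

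Both columns gave the same order of steps for the sum. The first columns summed to 962, 2316, 469, 3231, 294 and 1080.4 CPM from E13.5 to P21. The second columns summed to 957, 2597, 342, 2929.8, 139.9 and 566 CPM. The 2 columns lay close to each other at E13.5, E15.5 and P0, and the first was higher at E18.5, P6 and P21. At P0 the order of the columns depended on Cryaa. Left without that gene, the P0 sums were 2494 CPM in the first column and 2926 CPM in the second, a ratio of 0.853.

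Counted gene by gene, a step of 2-fold or more, in genes with 20 tags or more in the larger of the libraries, was seen in most members, as the choice of the members from these levels makes likely. At E15.5 against E13.5, 8 of the 10 were higher, beside 5.95% of all 12561 genes with enough tags. All 10 were lower at E18.5 than at E15.5, beside 2.57% of 12913 genes. At P0 against E18.5 all 10 were higher, beside 2.44% of 12802 genes. The step to P6 took all 10 lower than at P0, beside 7.84% of 12838 genes. At P21 against P6, 9 of 10 were higher, beside 9.96% of 13126 genes. The exceptions were Cryaa and Cryab at the first step, 1.85-fold and 1.61-fold higher at E15.5, and Cryab at the last, 1.86-fold higher at P21. Crybb2 was counted at the steps to and from P6 with only 2 tags at P6.

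The full alternation of higher, lower, higher, lower, higher held in 10 of 10 genes with the columns added, beside 5.14% of all genes with a site. It held in 10 of 10 in the first columns, beside 5.57% of all genes. In the second columns it held in 8 of 10, beside 4.48%, and the other two were Cryaa and Cryga.

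**Figure D1:**
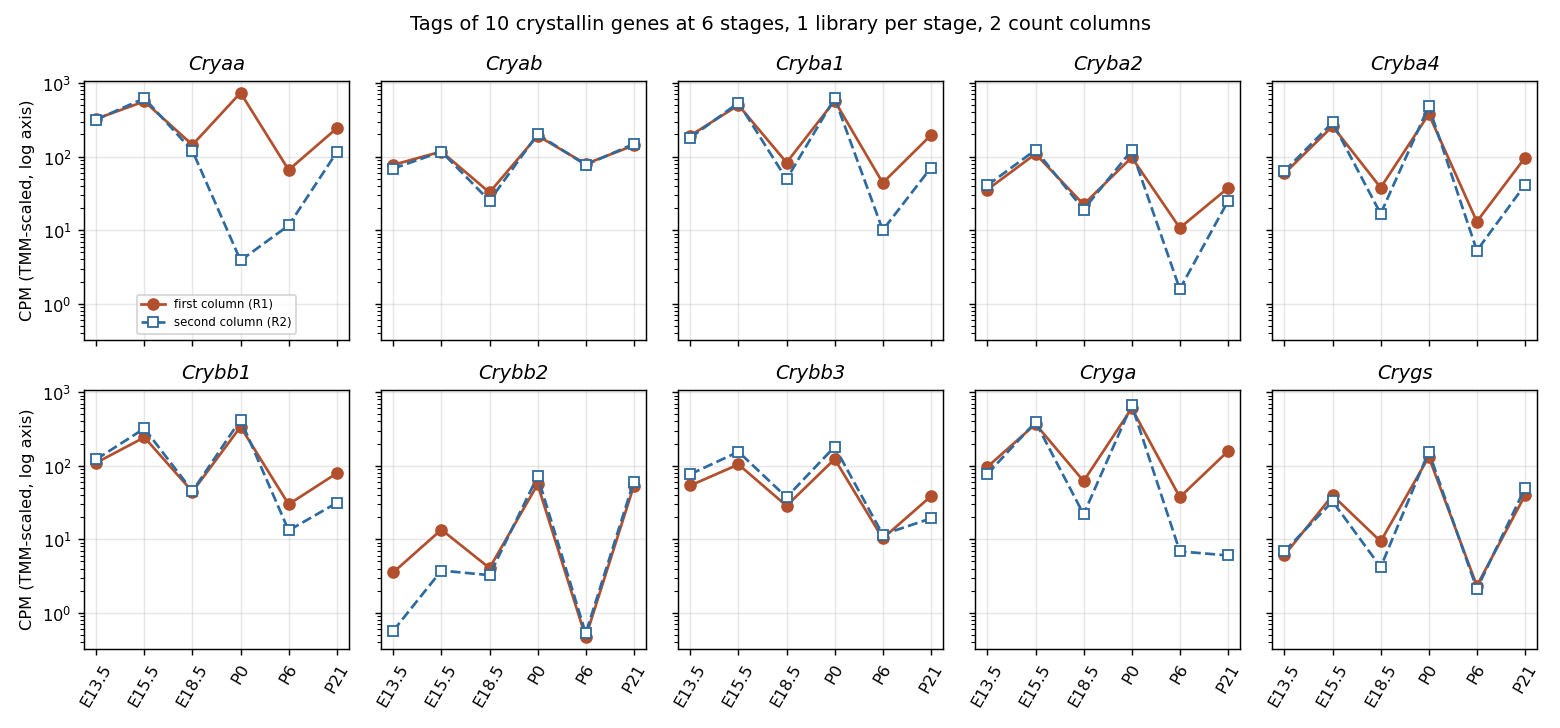
CPM of each of the 10 crystallin genes (log axis) at the 6 stages in order, with filled circles for the first column and open squares for the second. Peaks at E15.5 and P0 and troughs at E18.5 and P6 recur in most panels; Cryaa at P0 (737 CPM in the first column, 3.89 in the second) and Cryga at P21 (157 in the first, 6.04 in the second) leave the pattern in the second column.

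The alpha crystallins come first. Cryaa encodes the alpha A crystallin, the chaperone found mainly in the lens. In the first columns it stood at 326, 563, 145, 737, 65.9 and 242 CPM from E13.5 to P21. In the second columns it stood at 319, 621, 119.7, 3.89, 11.6 and 115 CPM. The 2 columns lay within 1.21-fold of each other at the 3 embryonic stages and far apart at P0, where the first column held 1177 tags and the second 6. The P0 level with the columns added, 380.0 CPM, therefore rests on the first column, in which P0 was the highest stage, while in the second it was the lowest. Without Cryaa the summed step from E18.5 to P0 was larger, with a log2 ratio of 3.32 at P0 over E18.5.

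A gene with at least 500 tags in the first column and 10 or fewer in the second was rare. That limit was set after the values of Cryaa were seen. At P0 it held for 3 of 333 genes, Cryaa, Gnat1 and Tuba1a. It held for Prph2 and Rcvrn among 488 genes at E15.5, for Tmsb10 among 859 at E18.5 and for Aldoa among 460 at P21, and for none at E13.5 and P6. No gene had the reverse at any stage.

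Cryab encodes the alpha B crystallin, a stress-induced chaperone that glia and muscle also make. Its first columns read 77.4, 117, 32.6, 192, 79.5 and 142 CPM from E13.5 to P21, and its second columns 68.9, 117, 25.1, 201, 77.1 and 149 CPM. The 2 columns of Cryab kept to ratios of 0.954 to 1.30, first over second, at all 6 stages. With the columns added it had the narrowest range of the 10 genes, 6.87-fold between P0, its highest stage, and E18.5, its lowest, and the other 9 genes were lowest at P6. In the second columns alone Cryaa was lowest at P0 and Cryga at P21. At P6 Cryab was 2.54-fold lower than at P0 with the columns added. The other genes were 9.41-fold lower or more, leaving out Crybb2, whose 2 tags at P6 are under the floor of 3 tags. From the first columns alone the smallest such step among the other genes was that of Cryba2, 9.08-fold lower at P6. Cryaa, read from the second columns, was 2.99-fold higher at P6 than at P0.

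The acidic beta crystallins are Cryba1, Cryba2 and Cryba4, which pair with basic beta crystallins in the lens. Cryba1, whose transcript makes the beta A3 and beta A1 proteins from different start codons, had 193, 499.9, 83.1, 573, 44.0 and 195 CPM in the first columns from E13.5 to P21. In the second columns it had 181, 539.8, 49.4, 619.8, 10.03 and 70.3 CPM. Cryba1 tracked the summed level of the other 9 members most closely in both columns, with a Pearson r of log2(CPM + 1) of 0.993 over the first and 0.994 over the second. These 6 points a column share libraries and the choice of the members, so r is a description.

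Cryba4 ran at 59.0, 259, 37.9, 377, 13.1 and 96.5 CPM in the first columns and at 63.7, 291, 16.8, 483, 5.28 and 41.2 CPM in the second. It covered a wide range, 46.0-fold between P0 and P6 with the columns added, and its columns differed by over 2-fold at E18.5, P6 and P21, the first being higher.

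Cryba2 was the member with a second site inside the gene. Over both sites it had 35.6, 109, 22.4, 97.7, 10.8 and 37.3 CPM in the first columns, against 40.7, 123, 19.1, 122, 1.58 and 24.7 CPM in the second. It peaked at E15.5 rather than P0 in both columns, though by a small margin in the second. At P6 it had 23 tags in the first column and 3 in the second. The inner site, in an exon outside the coding sequence, held 6.04% of its tags over all libraries. It had 3, 22, 4, 8, 0 and 2 tags in the first columns from E13.5 to P21 and 5, 14, 1, 11, 0 and 0 in the second, and the 0 at P6 allows up to 0.730 CPM. The share between the 2 sites was not used in choosing the members. Its change with stage order did not pass edgeR's test of site choice (F = 0.311, adjusted p = 0.879), in which 2.16% of 6060 genes were called.

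The basic beta crystallins are Crybb1, Crybb2 and Crybb3. Crybb1, made early in fibre cells, stood at 109.9, 243, 44.4, 339, 29.9 and 78.9 CPM in the first columns and at 122, 321, 45.2, 422, 13.2 and 31.3 CPM in the second. Its site past the gene end held 1.29% of its tags. It had 5, 8, 0, 3, 0 and 0 tags in the first columns from E13.5 to P21 and 5, 11, 1, 8, 0 and 0 in the second, so nearly all lay at E13.5, E15.5 and P0. The second column was the higher at the 4 stages up to P0, with a ratio of first over second of 0.758 to 0.983, and the first was the higher at P6 and P21.

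Crybb3 had the higher level in its second column at 5 of the 6 stages. The first columns had 54.0, 104, 28.5, 123, 10.3 and 38.4 CPM from E13.5 to P21, and the second 76.9, 155, 37.3, 181, 11.6 and 19.2 CPM. Its ratio of first over second column was 0.673 to 0.886 from E13.5 to P6, and 2.00 at P21.

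Crybb2, which in the mouse lens accumulates mostly after birth, was at low levels before birth. Its tags in the first columns were 7, 26, 10, 89, 1 and 97 from E13.5 to P21, and in the second 1, 7, 7, 111, 1 and 111. With the columns added these are 2.15, 8.75, 3.66, 64.2, 0.496 and 57.1 CPM. Its P6 level rests on 2 tags, under the 3 tags taken as the floor, so no fold is given against P6. P0 and P21 were its high stages in both columns and were near each other, unlike in the genes that peaked at E15.5 and P0. They were also the 2 highest stages of Cryab in both columns and of Crygs in the second.

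The gamma crystallins Cryga and Crygs complete the set. Cryga lies in the gamma cluster on chromosome 1, whose genes are made in differentiating lens fibres. Its first columns held 96.7, 368, 61.9, 605, 37.4 and 157 CPM, and its second 77.5, 393, 21.9, 669.6, 6.86 and 6.04 CPM. It was the most abundant member at P0 in the second column and with the columns added, at 642 CPM. At P21 it had 287 tags in the first column and 11 in the second, a CPM ratio of 26.1, so that P21 over P6 gave a ratio of 4.21 from the first columns and one of 0.880 from the second.

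Crygs, the gamma S crystallin of the lens cortex, lies on chromosome 16, apart from the cluster. It stood at 6.11, 39.6, 9.37, 132, 2.34 and 39.5 CPM in the first columns and at 6.89, 32.8, 4.19, 155, 2.11 and 49.4 CPM in the second. Crygs had 9 tags at P6 over both columns and 450 at P0, a level 64.8-fold lower at P6. Its 2 columns were near each other at P0, P6 and P21, with ratios of 0.853, 1.11 and 0.799, first over second.

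The columns of a stage were read as repeat measurements, though what distinguishes them is not stated. Their distance is the only repeat comparison that the files offer. Whether that distance is random error was not tested. In the crystallin genes the differences of 2-fold or more all had the first column higher. Over all genes the median log2 ratio of the first over the second column was between -0.03 and 0.04 at every stage. Among crystallin genes with at least 20 tags in the larger column, a first column 2-fold or more above the second was seen in 0 of 8 genes at E13.5, beside 2.07% of all genes. It was seen in 1 of 10, Crybb2, at E15.5, beside 3.60%. At E18.5 the count was 3 of 9, Cryba4, Cryga and Crygs, beside 1.12%. At P0 it was Cryaa alone among 10, beside 2.40%. At P6 it was 6 of 8, namely Cryaa, Cryba1, Cryba2, Cryba4, Crybb1 and Cryga, beside 0.978%. At P21 it was 5 of 10, Cryaa, Cryba1, Cryba4, Crybb1 and Cryga, beside 2.63%. No member had a second column 2-fold or more above the first at any stage. The share of all genes in that direction was not computed, so this count has nothing to be set beside.

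For the summed level the first column over the second gave 1.01, 0.892, 1.37, 1.10, 2.10 and 1.91 from E13.5 to P21. Without Cryab, whose columns hardly differed, the ratios were 0.996, 0.887, 1.38, 1.11, 3.41 and 2.25. The columns therefore lay furthest apart at P6 and P21. A higher first column was not particular to the crystallins. Red blood cell genes summed to 272 CPM in the first column at P0, against 56.3 CPM in the second. At P6 they summed to 264 and 219 CPM, and at E13.5 to 945 and 1050 CPM, first and second. Among them Hbb-y had 63 tags in the first column at P6 and 0 in the second, and 40 and 0 at P21. Hbb-bs had 239 and 201 tags at P6 and 367 and 395 at P21. Of the retinal list, Rcvrn had 208 and 5 tags at E13.5 and 742 and 7 at E15.5. The cause of these differences, and their part in the crystallin ratios, was not tested.

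**Figure D2:**
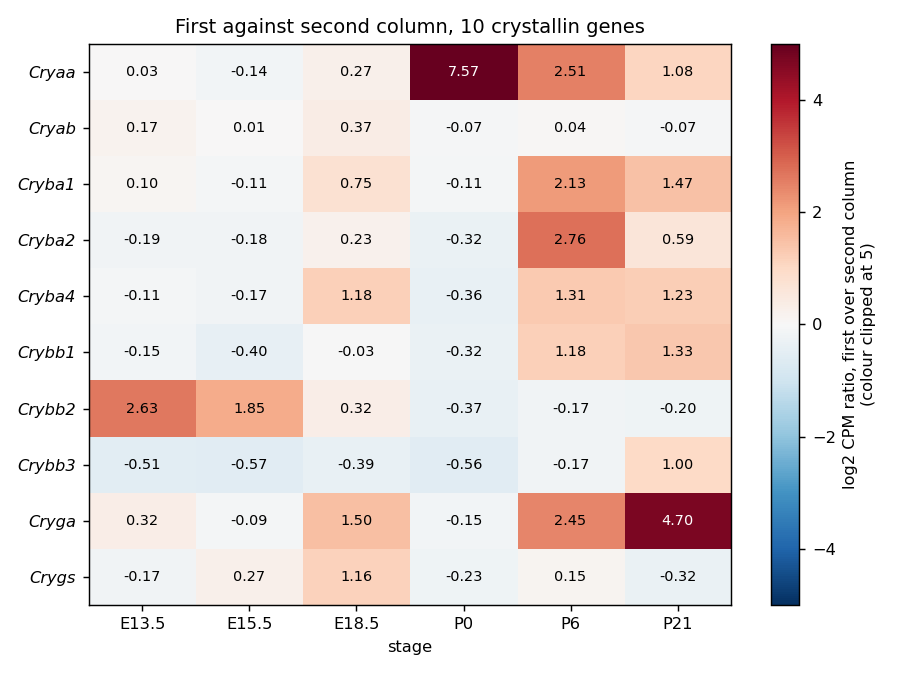
Log2 ratio of CPM, first over second column, for each of the 10 crystallin genes (rows) at each stage (columns of the grid), printed in each cell, with colour clipped at 5. Red cells gather at P6 and P21, with 7.57 for Cryaa at P0 and 4.70 for Cryga at P21; Crybb2 at E13.5 and P6 and Cryba2 at P6 rest on 3 tags or fewer in a column.

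The make-up of the crystallin tags also moved. A tag counts an end and not a length, so shares of tags need no length correction, though how well each end was caught is not known. Cryaa was the most frequent member at E13.5, with 33.6% of the tags of the 10 genes (95% Wilson interval 32.1% to 35.2%). At P0 it had 22.8% of the first column and 0.13% of the second, where Cryga had 22.9%.

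At P6 Cryab was the most frequent, with 35.4% of the tags, 27.1% in the first column and 55.1% in the second. It had 4.76% to 7.65% at the 4 stages up to P0 and 17.6% at P21. The level of Cryab itself was not raised at P6, at 78.3 CPM, against 199 CPM at P0, while the other 9 genes together were at 143 and 2913 CPM. With the columns added Crybb2 and Crygs took their largest shares at P21, 6.93% and 5.39%, against 0.22% and 0.67% at E13.5. Crygs already had 4.65% at P0, and in the first columns alone its largest share was at P0, 4.09%. At P21 Crybb2 and Crygs had 4.92% and 3.65% in the first column and 10.8% and 8.72% in the second. The CPM of the 2 genes differed little between these columns, while the other members except Cryab were higher in the first.

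**Figure D3:**
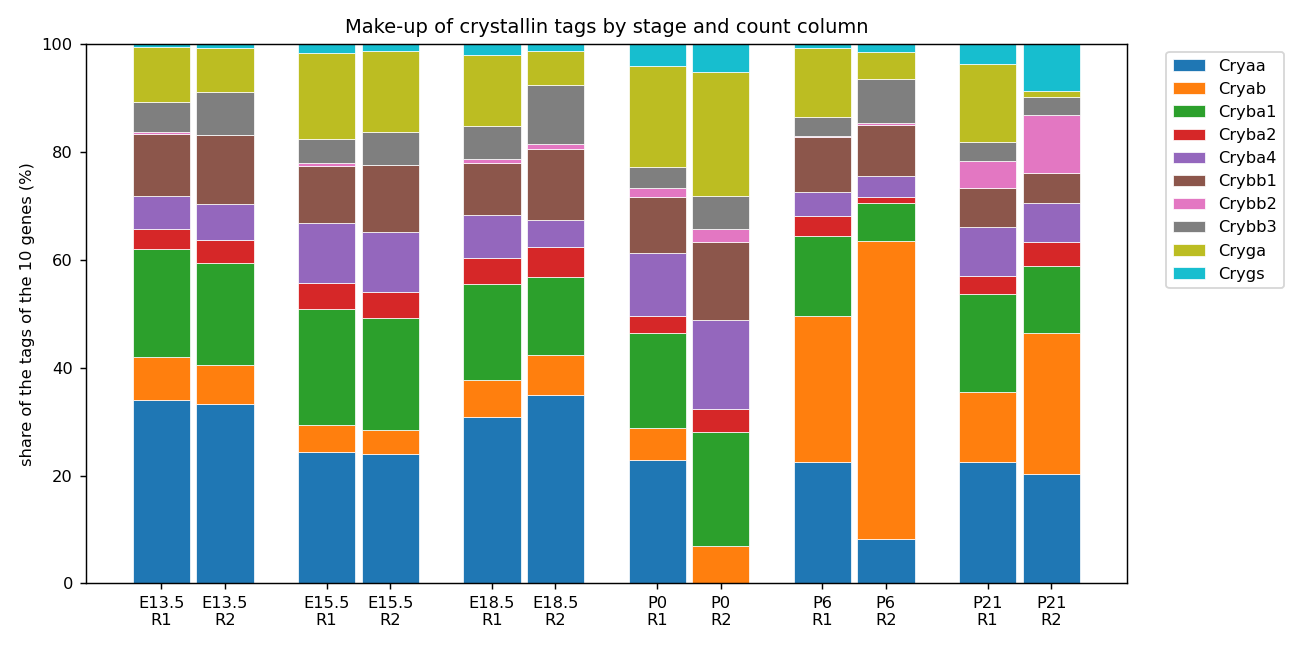
Share of each crystallin gene in the tags of the 10 genes, in percent, stacked to 100 for the first (R1) and second (R2) column of each stage. Cryab widens at P6 to 27.1% and 55.1%, and Cryaa is nearly missing from the second column at P0 (0.13%). Crybb2 is widest at P21 in both columns, and Crygs is widest at P21 only in the second.

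A linear trend over the stages was fitted on all genes. Since the members were chosen for levels that rise and fall from stage to stage, such a fit puts their alternation into the spread, and a missing call says little about them. In edgeR's quasi-likelihood fit of a linear term in stage order, 17.4% of 14405 genes were called rising and 11.8% falling at an adjusted p of 0.05 or less, and 0 of the 10 crystallin genes in either direction. None of the 10 had an unadjusted p under 0.05, and DESeq2's Wald test also called 0. The fitted changes are a description. Over the 5 steps they were positive in Cryab, Crybb2 and Crygs and negative in the other 7, with a median of -1.09 on the log2 scale, where the median of all genes was 0.004. Without the E15.5, P6 or P21 library the split was 5 positive and 5 negative, with a median of -0.02, -0.12 and -0.12, and without E13.5 the median was -1.98. The lowest adjusted p was that of Crybb2, with a fitted log2 change of 3.96 ± 2.12 (SE, adjusted p = 0.192 by edgeR). The standard errors ran from 0.84 for Cryab to 2.39 for Crygs.

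Other genes with the same profile were sought by the lower of the 2 Pearson r of log2(CPM + 1) with the summed crystallin level, over the 6 first columns and over the 6 second columns. Among 9765 genes with a mean of at least 20 CPM, the 10 highest were Crygc (0.991), Cryge (0.969), Crygd (0.966), Crygb (0.952), Crygn (0.948), Hras (0.928), Lim2 (0.925), Rabl6 (0.922), Crygf (0.909) and Mip (0.908). Of these, 6 are gamma or gamma N crystallins, Lim2 is a lens fibre membrane protein and Mip is the lens water channel aquaporin 0. The points share libraries with the crystallin sum, and the values are a description. Hras and Rabl6 had the order of the stages but hardly moved, at 229 to 263 CPM and 103 to 143 CPM, whereas Crygc ran at 44.3, 172, 16.4, 367, 7.68 and 48.6 CPM from E13.5 to P21.

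Among the members themselves, measured against the sum of the other 9, Cryaa had r of 0.963 over the first columns and 0.038 over the second. Cryab had 0.688 and 0.476, Crybb2 had 0.792 and 0.427, and Crygs had 0.896 and 0.786. The other 6 genes lay at 0.965 or more over the first columns and at 0.891 or more over the second.

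Markers of other cells were set beside the crystallins. Of 12 genes of lens fibres other than crystallins, 9 were measured and summed to 173, 621, 62.9, 756, 33.5 and 65.3 CPM from E13.5 to P21. All 9 were highest at E15.5 or P0, a count whose share over all genes was not computed. Of the 9, 6 had the full alternation with the columns added, beside 5.14% of all genes. In the first columns 7 of 9 had it, beside 5.57%, and in the second 4 of 9, beside 4.48%. Their sum had the step order of the crystallin sum with the columns added. At P21 it was 116 CPM in the first column, against 14.8 CPM in the second, where the P6 sum was 24.8 CPM. Mip had 51 tags in the first column and 1 in the second at P21, and 13 and 0 at P6. Gja3, a lens gap junction gene, had no tag at E18.5, P6 and P21. At E13.5, E15.5 and P0 it had 8, 22 and 15 tags in the first columns and 4, 26 and 7 in the second. The part of lens tissue in the crystallin levels was not tested.

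Transcription factors and RNA-binding proteins that control lens genes did not share the profile. Of 7 listed, 5 were measured. Foxe3 and Pitx3, transcription factors needed for lens development, fell with stage order, by 5.73 ± 1.14 and 6.37 ± 0.83 on the log2 scale (adjusted p = 0.0113 and 0.00361 by edgeR). Foxe3 stood at 35.2, 33.4, 2.80, 1.93, 0.743 and 1.92 CPM from E13.5 to P21, so that it was low at P0, where the crystallins were highest. At P6 Foxe3 had 3 tags in the first column and 0 in the second. Pitx3 stood at 15.0, 12.5, 1.94, 1.28, 0.496 and 0.274 CPM, with 1 and 1 tags at P6 and 1 and 0 at P21. The size of both falls therefore rests in part on counts at or under the floor of 3 tags. Prox1, also made in retinal neurons, and Tdrd7, an RNA granule protein, rose by 1.54 ± 0.22 and 4.003 ± 0.55 (adjusted p = 0.0045 and 0.00399 by edgeR), and Maf did not pass the test.

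Of 14 other genes with a crystallin name or of the family, 12 were measured, and 0 rose or fell with stage order. The gamma genes Crygb, Crygc, Crygd, Cryge, Crygf and Crygn had the full alternation in both columns. Crym, Cryz, Cryzl1 and Cryl1, named for enzymes that serve as lens proteins in some other mammals or like them, and Crybg1 and Crybg3, larger relatives of the beta and gamma family, did not. Crym had 53.7, 145, 244, 269, 422 and 174 CPM, highest at P6, where the 10 crystallins were lowest in sum.

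The other small heat shock proteins did not follow Cryab. Of 7 listed, 3 were measured. Hspb1 and Hspb6 rose with stage order, by 2.65 ± 0.67 and 2.97 ± 0.27 on the log2 scale (adjusted p = 0.0244 and 0.00227 by edgeR), and Hspb8 did not pass the test. Hspb6 had 33.3, 57.0, 62.9, 92.8, 148 and 301 CPM from E13.5 to P21.

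Lists for Müller glia, pigment epithelium, cornea, red blood cells, mesenchyme and microglia stood at other levels and orders. Müller glia, retinal support cells that can express crystallins, summed to 1729, 1820.0, 1758, 2195, 1899.8 and 2751 CPM over 8 genes. Of these, 3 had the full alternation with the columns added, beside 5.14% of all genes. In the first columns 3 of 8 had it, beside 5.57%, and in the second 2 of 8, beside 4.48%. This sum took the same directions of steps as the crystallin sum with the columns added, over a far smaller range and with its highest value at P21. In the second columns it did not, going from 1732 CPM at E15.5 up to 1758 CPM at E18.5. The 8 measured of 11 pigment epithelium genes summed to 100.2, 88.1, 56.3, 77.7, 207 and 398 CPM, with Rpe65, Tyr and Lrat not among the genes measured. Red blood cell genes summed to 990.0, 668, 201, 167, 243 and 449 CPM over 8 genes. With the columns added 0 of these 8 had the full alternation, beside 5.14% of all genes. In the first columns 3 of 8 had it, beside 5.57%, and in the second 0 of 8, beside 4.48%. Cornea genes (6 of 8 measured) ran from 47.5 to 97.95 CPM in sum, mesenchyme genes (6 of 8) from 251 to 507 CPM, and microglia genes (6 of 6) from 105 to 199.7 CPM. None of these 6 sums had its 2 highest values at E15.5 and P0, where the crystallin and lens fibre sums had theirs. The part of these cells in the crystallin levels was not tested.

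**Figure D4:**
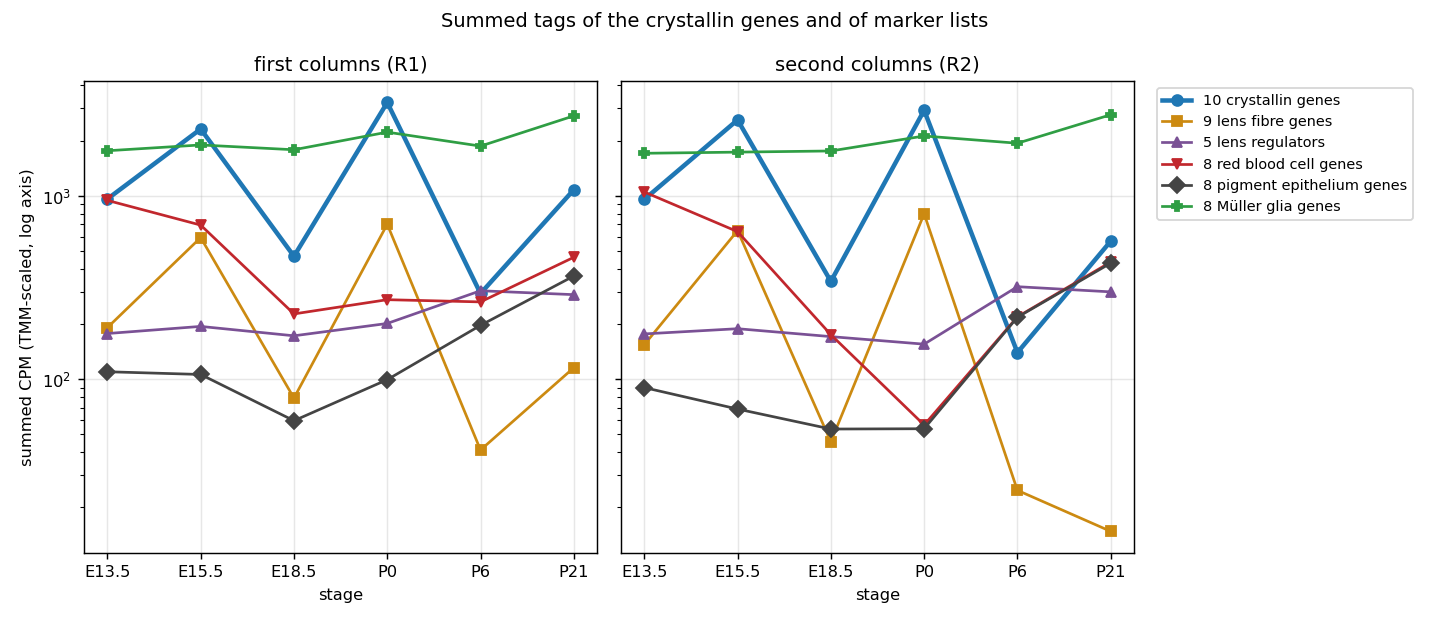
Summed CPM (log axis) of the 10 crystallin genes and of 5 marker lists at the 6 stages, first columns on the left and second columns on the right. Lens fibre genes follow the crystallins up to P6 in both panels and differ between the panels at P21 (116 CPM in the first column and 14.8 in the second), while the sums of lens regulators, Müller glia, pigment epithelium and red blood cells do not have their 2 highest values at E15.5 and P0.

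Since the members moved together, their promoters were read for 2 short motifs, TGCTGA (with its reverse complement TCAGCA), the core of the element that Maf factors bind and that lens genes are known for, and TATAAA, the letters of a TATA box. RefSeq promoters (GRCm38.p6, 250 bases before to 50 after the start) were at hand for 9 of the 10 genes. TGCTGA or TCAGCA was found in 8 of 9, beside 19.5% of 32851 promoters of the same length. TATAAA was found on the gene strand in 4 of 9, Cryba1, Cryba2, Crybb1 and Crygs, beside 8.32%. The 2 motifs cannot overlap each other. A match is a description and no binding was measured. The TATAAA began 30 bases before the annotated start in Crybb1, 25 in Crygs, 23 in Cryba1 and 3 in Cryba2, the last of these being nearer to the start than a TATA box usually lies. Shown with the matches in capitals are Cryaa and Crybb1, and Crybb2 as the member with neither set of letters in its window.
Cryaa, chr17:31677681-31677980, plus strand: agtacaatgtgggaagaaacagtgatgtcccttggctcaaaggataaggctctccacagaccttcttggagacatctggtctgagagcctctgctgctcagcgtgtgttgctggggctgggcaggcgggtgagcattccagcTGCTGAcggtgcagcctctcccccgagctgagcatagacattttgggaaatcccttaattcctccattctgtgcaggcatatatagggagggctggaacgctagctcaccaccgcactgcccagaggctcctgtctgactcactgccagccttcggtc
Crybb1, chr5:112255570-112255869, plus strand: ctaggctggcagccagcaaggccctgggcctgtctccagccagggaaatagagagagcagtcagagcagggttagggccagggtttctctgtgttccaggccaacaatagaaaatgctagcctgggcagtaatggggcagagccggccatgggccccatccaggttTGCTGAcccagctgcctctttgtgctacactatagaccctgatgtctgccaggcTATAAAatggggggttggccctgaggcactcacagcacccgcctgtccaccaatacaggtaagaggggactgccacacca
Crybb2, chr5:113070068-113070367, minus strand: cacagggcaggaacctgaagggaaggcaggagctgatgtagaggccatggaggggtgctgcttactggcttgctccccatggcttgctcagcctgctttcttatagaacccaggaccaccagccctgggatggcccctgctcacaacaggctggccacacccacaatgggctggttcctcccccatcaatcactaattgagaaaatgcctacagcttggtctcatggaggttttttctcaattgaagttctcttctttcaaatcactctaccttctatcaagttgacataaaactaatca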

How the data were processed

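PA-seq tags were counted in 6 libraries of mouse retina, 1 per stage. The deposited table holds, per the file headers, raw counts of tags per poly(A) site in 12 columns, 2 for each stage, and a deposited enrichment score per site whose computation is not given in the sources used here. The score was not used in any result. Per the submitters' processing notes, BWA 0.7.5a-r405 and mm10 were used; how sites were clustered, filtered or freed of duplicates is not given in the sources used here.

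Sites were placed on GENCODE M21 genes by their 3′ edge, up to 1000 bases downstream, and 29094 were given to a gene. The 2 columns of a stage were added, and also read apart. CPM were scaled with TMM factors (edgeR 4.0.16, R 4.3.3), and 3 tags stand for 0.644 to 0.913 CPM. Stage order (1 linear term, 4 residual degrees of freedom) was tested over all genes with at least 1 CPM in 2 libraries by edgeR's quasi-likelihood F test, and site choice with diffSpliceDGE on the main pair of sites (each with 5% of the tags, mean of 20 tags per library), both with Benjamini-Hochberg adjustment. A standard error is the size of the fitted change over the root of its F statistic. DESeq2 1.42.0 and BLAST 2.17.0 served for an alternative test and the search of transcript ends. The trend and site choice scripts were tested on simulated data.

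The members, the gene lists and the alternatives were chosen with earlier results of these data known. All 10 members are named, beside the 10 genes most like their sum and list members of highest mean CPM; other genes named were chosen after their values were seen. A site sequence and the test of a list gene are not reported here.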

Additional observations from a re-analysis of the deposited data

How the results depend on the processing

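Each stage had 1 library, so every step between stages lacks a replicate, and levels near 3 tags are at the limit of detection. No paired analysis was possible because each stage had 1 sample. None of the 10 genes was called with stage order under any alternative, and 124 of 130 fitted changes kept their sign. Those of Cryba4 and Cryga turned positive without E15.5, P6 or P21. Leaving out 1 library each, they ran from -2.0004 to 0.44 in Cryba4 and from -2.17 to 0.44 in Cryga. Without P0 and without P6, 1 member each had an unadjusted p under 0.05 (lowest adjusted p 0.0898 and 0.0525 by edgeR). Genes rising ran from 818 to 2698 and genes falling from 488 to 2305 on leaving out 1 library, against 2500 and 1698 with all. The rising count was 1249 without E13.5 and 818 without P21, and the falling count 725, 788, 984 and 488 without E13.5, E15.5, P6 and P21; these fits had fewer samples.

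The log2 steps of the crystallin sum kept their direction in all 30 alternatives. From the first columns they were 1.27 (E15.5 over E13.5), -2.31 (E18.5 over E15.5), 2.79 (P0 over E18.5) and -3.46 (P6 over P0), and from the second 1.44, -2.93, 3.10, -4.39 and 2.02 (P21 over P6). With plain library totals P0 over E18.5 was 2.86. The sums without Cryaa and without Cryab were chosen after seeing the data. Without Cryaa the first 4 steps were 1.56, -2.77, 3.32 and -3.92, and without Cryab the last 2 were -4.35 and 2.25. At 4-fold, 4 members were higher at E15.5 than at E13.5, against 8 at 2-fold. Site choice called 51 genes in the first columns, 98 in the second and 131 with both; the cause was not tested.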
